A study of Homo sapiens with 4 samples.

Results

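Forkhead transcription factors of every subfamily other than FOXA were examined, and their promoters were taken as all rows whose gene symbol begins with FOX, followed by a letter from B to S and a digit. This rule found 46 of the 20242 promoters, in 18 subfamilies from FOXB to FOXS. Both histone marks were measured by chromatin immunoprecipitation and sequencing (ChIP-seq) in JMJD3c-hESCs. These cells derive from SEES-3, a human embryonic stem cell line, and carry an HA-tagged catalytic domain of JMJD3 (JMJD3c), an H3K27 demethylase, that a doxycycline-controlled (Tet-On) promoter switches on when doxycycline (Dox) is present. Trimethylated lysine 27 of histone H3 (H3K27me3) and trimethylated lysine 4 (H3K4me3) were each profiled in cells grown in StemFit AK-03 without Dox (−Dox) and in cells given Dox at 1 µg/ml and collected at day 3 (+Dox). The −Dox cells carry the same transgene. Each of the 4 groups holds 1 library, so no difference below has a replicate check, none has a p-value, and an effect of Dox itself cannot be told apart from that of JMJD3c.

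Forkhead proteins bind DNA through a winged-helix domain, and different subfamilies direct the formation of mesoderm, neural crest, thyroid, lens, airway cilia and gonads, while the FOXO and FOXM1 proteins act in most cells downstream of growth signals and in the cell cycle. In pluripotent cells the promoters of many developmental regulators are bivalent: they carry H3K27me3, laid down by Polycomb complexes and tied to repression, together with H3K4me3, the mark of active or poised starts. JMJD3 removes methyl groups from lysine 27.

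Every value is a promoter signal, the coverage over the 3 kb on both sides of the transcription start, scaled by the authors to the reads of the library. A signal of 20, the limit above which a promoter was called marked, corresponded to about 15.8 reads in the H3K27me3 −Dox library and to 16, 20.6 and 15.9 in the H3K27me3 +Dox, H3K4me3 −Dox and H3K4me3 +Dox libraries. The summed H3K27me3 signal was 251063 in −Dox and 213388 in +Dox cells. Equalizing these sums multiplies every H3K27me3 ratio by 1.18, a shift of 0.23 on the log2 scale. The smallest step between values was identical in both +Dox files and stood for 2682085 reads in each, so both were scaled to 1 read number. If that number were wrong for a library, all ratios of its mark would move by 1 common factor, whereas ranks within a library would not. Of 10 markers of pluripotent stem cells, 9 exceeded 20 for H3K4me3 in both conditions and none did for H3K27me3. The exception was POU5F1, whose deposited start lay 10049 bp from its annotated main start.

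Before induction the forkhead promoters were often bivalent. Both marks exceeded 20 in −Dox cells at 17 of 46 promoters (37%, 95% Wilson interval 24.5 to 51.4%), compared with 9.42% of all promoters. Another 4 were H3K27me3-only (8.70%, compared with 1.58% of all), 14 were H3K4me3-only (30.4%, compared with 54.2%) and 11 were unmarked (23.9%, compared with 34.8%). The classes differed with the known roles of the genes. Of the 13 members grouped as broadly expressed, a group that takes in all FOXO genes, 11 were H3K4me3-only, while 6 of 8 mesodermal, 4 of 6 neural and 4 of 7 epithelial, sensory, thymic and ciliary members were bivalent. Several members lay near the top of the H3K27me3 ranking. Among the 300 highest promoters were 11 of the 46 members (23.9%) in −Dox cells and 9 (19.6%) in +Dox cells. For all promoters these shares were 1.49% and 1.48%.

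**Figure D1:**
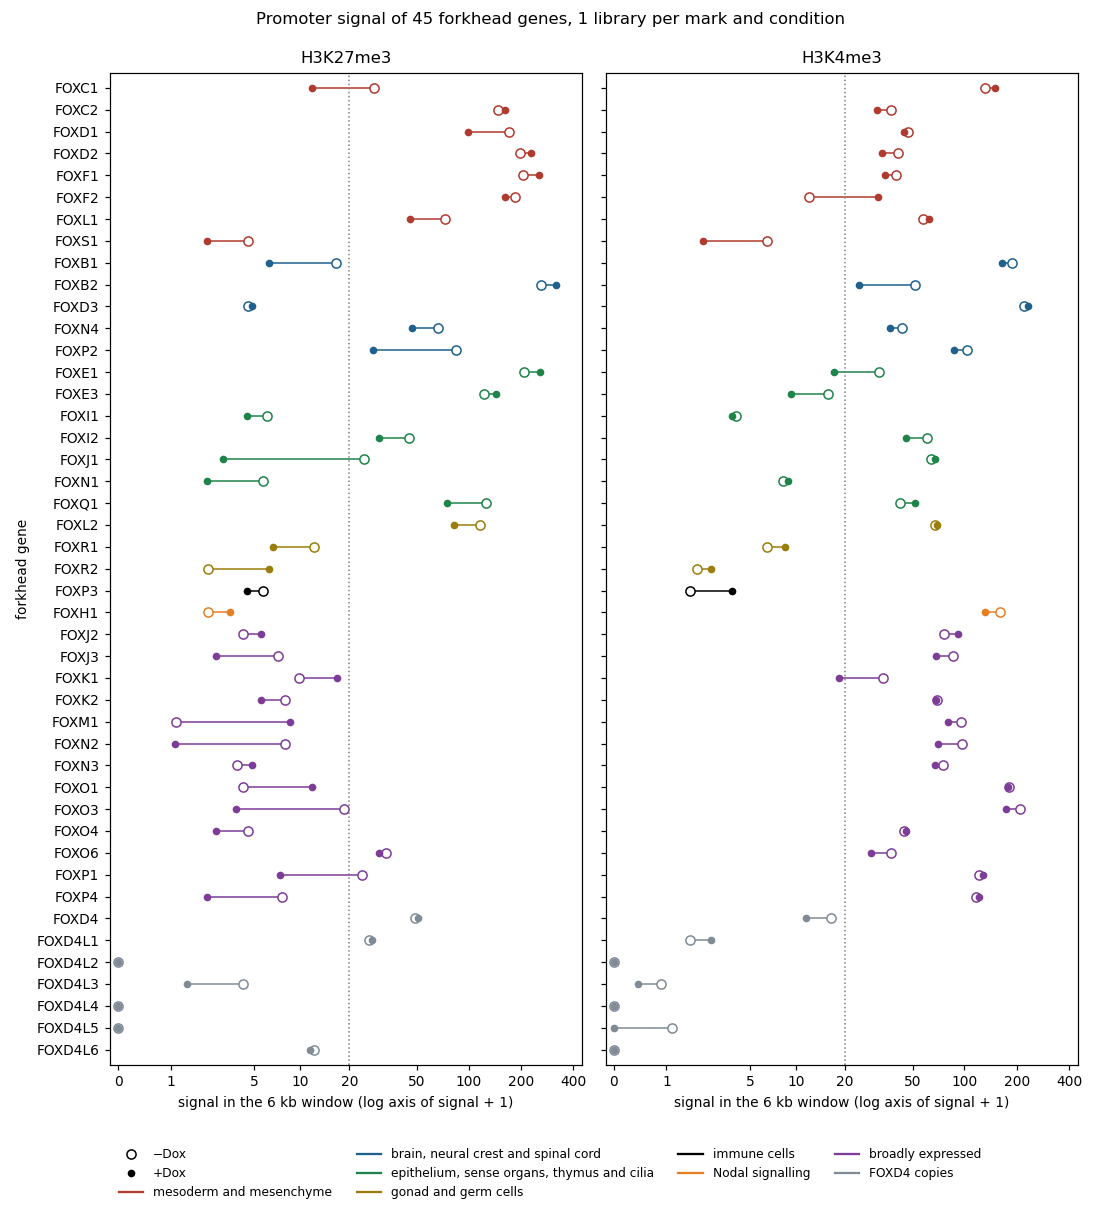
H3K27me3 (left) and H3K4me3 (right) signal of 45 of the forkhead promoters in −Dox (open) and +Dox (filled) cells, on a log axis of signal plus 1, grouped by role, with a dotted line at 20. In −Dox cells 20 of these promoters lie above the line for H3K27me3, 17 of which remain above it in +Dox cells, whereas the broadly expressed genes sit mostly at high H3K4me3 and low H3K27me3.

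Sequences of 6 promoters are given as examples, which need not be typical of their class. They are the 250 bases before the deposited start, read from GRCh37 and written 5′ to 3′ on the strand of the gene, with each CpG in capitals. FOXB2, FOXE1 and FOXQ1 were bivalent, FOXD3 had the highest H3K4me3 of the family, and FOXI1 and FOXP3 were unmarked.
FOXB2, chr9:79634321-79634570, plus strand: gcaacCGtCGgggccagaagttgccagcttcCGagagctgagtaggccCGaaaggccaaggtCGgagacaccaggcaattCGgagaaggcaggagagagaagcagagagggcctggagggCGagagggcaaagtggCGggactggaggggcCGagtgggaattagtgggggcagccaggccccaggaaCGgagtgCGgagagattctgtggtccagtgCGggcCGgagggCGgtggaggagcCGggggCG
FOXE1, chr9:100615258-100615507, plus strand: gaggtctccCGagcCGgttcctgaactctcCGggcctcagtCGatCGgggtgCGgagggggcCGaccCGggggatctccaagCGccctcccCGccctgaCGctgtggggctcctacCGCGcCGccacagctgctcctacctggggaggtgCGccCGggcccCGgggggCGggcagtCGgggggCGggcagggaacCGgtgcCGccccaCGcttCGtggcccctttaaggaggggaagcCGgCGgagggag
FOXQ1, chr6:1312083-1312332, plus strand: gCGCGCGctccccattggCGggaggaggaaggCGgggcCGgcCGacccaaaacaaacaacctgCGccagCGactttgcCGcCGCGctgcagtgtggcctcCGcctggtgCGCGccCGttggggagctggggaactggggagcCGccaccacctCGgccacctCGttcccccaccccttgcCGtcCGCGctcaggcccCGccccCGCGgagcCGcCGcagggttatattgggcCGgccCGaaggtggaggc
FOXD3, chr1:63787988-63788237, plus strand: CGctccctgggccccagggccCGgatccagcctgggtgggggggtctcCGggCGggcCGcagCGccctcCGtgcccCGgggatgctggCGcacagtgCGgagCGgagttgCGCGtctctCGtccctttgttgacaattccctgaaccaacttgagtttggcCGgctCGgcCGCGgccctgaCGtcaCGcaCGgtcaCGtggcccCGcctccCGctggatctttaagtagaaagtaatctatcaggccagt
FOXI1, chr5:169532667-169532916, plus strand: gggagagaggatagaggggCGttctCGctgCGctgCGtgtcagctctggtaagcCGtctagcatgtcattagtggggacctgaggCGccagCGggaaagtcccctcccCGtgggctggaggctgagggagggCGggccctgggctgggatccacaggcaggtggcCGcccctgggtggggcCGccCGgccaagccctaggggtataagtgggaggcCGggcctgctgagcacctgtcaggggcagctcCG
FOXP3, chrX:49121173-49121422, minus strand: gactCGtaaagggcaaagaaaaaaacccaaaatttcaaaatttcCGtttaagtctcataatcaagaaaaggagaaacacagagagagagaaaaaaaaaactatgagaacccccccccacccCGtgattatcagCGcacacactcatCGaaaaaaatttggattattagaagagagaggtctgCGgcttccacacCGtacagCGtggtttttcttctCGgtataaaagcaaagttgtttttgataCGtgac
These stretches held 16, 26, 29, 24, 14 and 10 CpGs, in the order given.

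Over 300 bases, from 250 before the start to 50 from the start on, CpG number could be counted for 39 of the 46 members (84.8%). Bivalent members held a median of 30.5 CpGs (n = 12) and H3K4me3-only members 33 (n = 13), compared with 6 in the unmarked (n = 11). Without the FOXD4 copies, whose reads may be split or lost among near-identical genes, the unmarked median was 11 (n = 6), an alternative chosen after seeing the data. The medians of all promoters in these classes were 29, 27 and 5. At least 15 CpGs, the letters CG read on either strand, were found at 11 of 12 bivalent members, FOXL1 with 6 being the exception, and at 2 of 11 unmarked members. Among all promoters the shares were 84.4% of the bivalent and 15.5% of the unmarked. H3K27me3-only promoters lay between these, with 2 of 3 members and 63.0% of all such promoters at 15 or more.

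**Figure D2:**
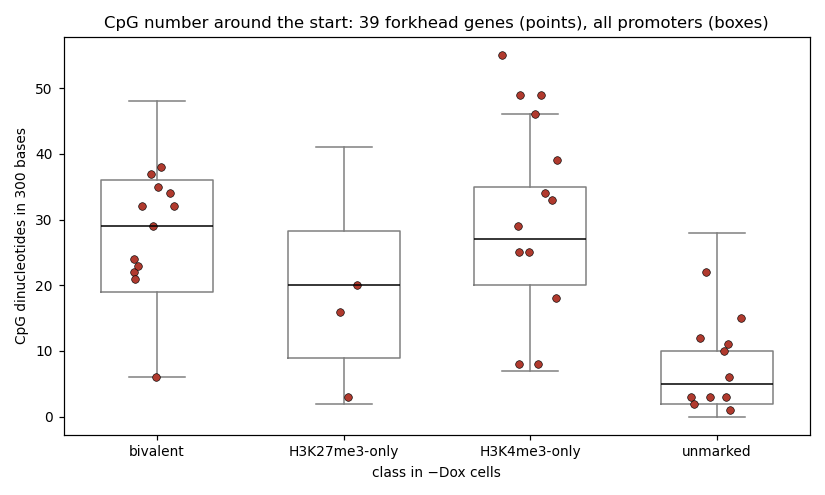
CpG number in 300 bases around the start, by class in −Dox cells. Points are forkhead promoters, and boxes show the median and quartiles of all promoters with whiskers at the 5th and 95th percentiles. Most bivalent and H3K4me3-only members lie at 15 or above, and most unmarked members below it.

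Whether induction of JMJD3c lowered H3K27me3 was examined next. The ratio is the +Dox signal divided by the −Dox signal, and its 95% interval was taken from the approximate reads of the 2 libraries, so that it covers counting error only. Promoters are said to have fallen or risen when this interval lay wholly below or above 1. Both words refer to signal scaled to library reads. A rise is thus a larger share of reads, not a measured gain of the mark. By immunoblot, the paper found lower total H3K27me3 in these cells after Dox. H3K27me3 fell at 9 of the 43 members with a ratio (7.06% of all promoters) and rose at 2 (1.59% of all promoters). Many of all promoters have too little signal to pass. At a mean H3K27me3 signal of at least 20 it fell at 6 of 19 members, compared with 779 of 1793 promoters. It rose there at 2 members, compared with 71 promoters. The 9 members that fell were FOXC1, FOXD1, FOXJ1, FOXL1, FOXL2, FOXO3, FOXP1, FOXP2 and FOXQ1. The 2 that rose were FOXB2 and FOXE1. With the libraries scaled to the same total, FOXC1, FOXL1 and FOXL2 no longer passed, and FOXC2, FOXD2, FOXE3, FOXF1 and FOXM1 joined the promoters that rose. That scaling treats the summed signal as equal in both conditions, although the immunoblot showed less total H3K27me3 after Dox.

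The bivalent members had a smaller median loss of H3K27me3 than all bivalent promoters. The median log2 ratio was −0.51 (−0.79 to 0.14) over the 17 bivalent members and −0.81 over all bivalent promoters. H3K27me3 dropped below 0.5 of its −Dox level at 4 of 17, compared with 40.8% of all bivalent promoters, and fell by the interval at 8 of 17, compared with 48.6%. The −Dox signal both sets this class and divides the ratio, which favours low ratios. With classes from the mean of both conditions, 2 bivalent members had a ratio below 0.5. At a mean H3K27me3 signal of at least 20 it was 2 of 19 members and 553 of 1793 promoters. Both members that rose were bivalent (2 of 17, compared with 2.15% of all bivalent promoters). Both also had a mean H3K27me3 signal above 100. At means of at least 100, H3K27me3 rose at 2 of 10 members and at 56 of all 298 promoters, so the shares were similar at that level. Of the 17 bivalent members, 13 were still bivalent in +Dox cells (76.5%), compared with 51.0% of all 1907 bivalent promoters. The members started higher, with a median −Dox H3K27me3 signal of 117, compared with 43.0 in all bivalent promoters. A promoter that starts higher can lose more signal before it leaves the class. Whether the shares differ at equal starting signal was not tested. FOXC1, FOXJ1 and FOXP1, with −Dox H3K27me3 signals of 28.1, 24.3 and 24.0, became H3K4me3-only. FOXE1 became H3K27me3-only.

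Many members also had more H3K27me3 than most marked promoters, and the ratio varied with that level. Of the 19 members with a mean H3K27me3 signal of at least 20, 10 had a mean of at least 100, as had 298 of the 1793 promoters above that minimum. At means of 100 or more the median log2 ratio was 0.18 in the members (−0.76 to 0.30) and 0.04 in all promoters. At means of 50 to 100 it was −0.51 in 5 members and −0.54 in all promoters. At means of 20 to 50 it was −0.35 in 4 members and −0.90 in all promoters. Over the 19 members together the median was −0.20 (−0.68 to 0.22), compared with −0.63 for all promoters with that minimum. This median became 0.04 with the libraries scaled to the same total and 0.06 over the members whose deposited start lay within 1 kb of the annotated main start, so its sign was not fixed.

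**Figure D3:**
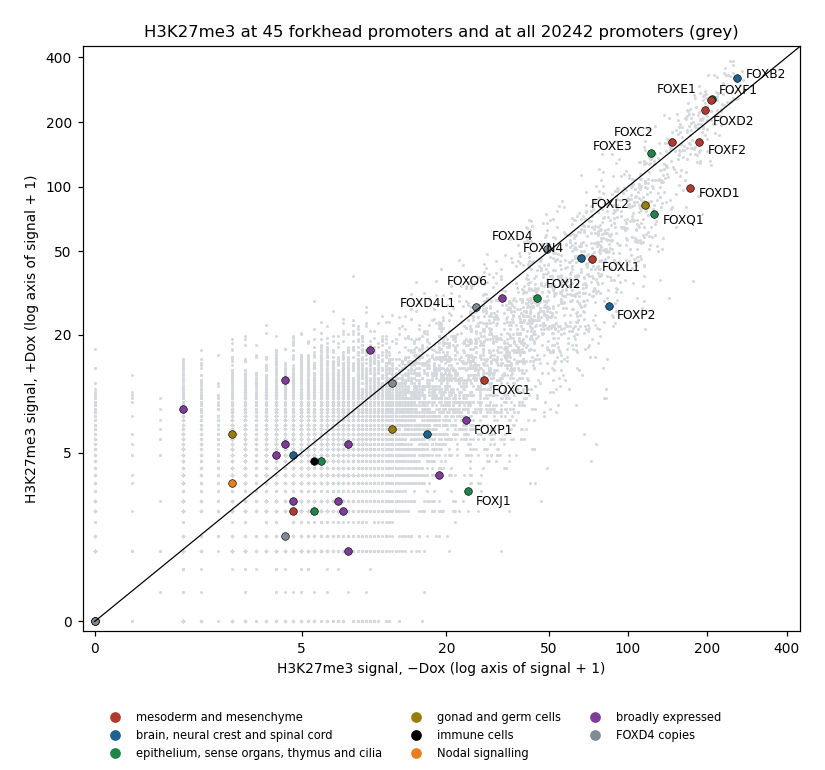
H3K27me3 signal in −Dox (x axis) against +Dox cells (y axis), both on log axes of signal plus 1. Grey points are all 20242 promoters, coloured points are 45 forkhead promoters by role, and the line marks equal signal. Of the 9 coloured points with a mean of at least 100, 6 lie above the line, and most of those between 20 and 100 lie below it.

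Mesodermal and mesenchymal members ranged from a strong loss to none. FOXD1, which marks the stroma of the developing kidney, had an H3K27me3 signal of 172 in −Dox and 99.2 in +Dox cells. It fell to a ratio of 0.578 (0.431 to 0.766), and its rank went from 128 to 265, while H3K4me3 was 46.7 and 44.4. FOXD2, its close relative, went the other way, with 196 and 228 (1.16, 0.933 to 1.45), an interval that includes 1 and does not overlap that of FOXD1. FOXS1, expressed in vascular and neural crest derivatives, was unmarked, with at most 6.55 for either mark.

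In the group of neighbours on chromosome 6, FOXQ1 (1312333 to 1314993), FOXF2 (1389811 to 1395838) and FOXC1 (1610150 to 1614132) follow each other, with starts 77.5 and 220.3 kb apart. FOXQ1, an epithelial regulator, had 126 and 74.6 and fell to 0.592 (0.426 to 0.830). FOXF2, needed in gut and palate mesenchyme, had 186 and 162, and its ratio of 0.872 (0.687 to 1.12) includes 1. FOXC1, which acts in eye, heart and somite mesoderm, had 28.1 and 11.9 and a ratio of 0.424 (0.189 to 0.985). All 3 ratios were thus below 1, and the intervals of FOXQ1 and FOXF2 overlap.

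FOXF2 was also the 1 member at which H3K4me3 rose. Its H3K4me3 signal was 12.0, or about 12 reads, in −Dox and 31.3, or about 25 reads, in +Dox cells. The ratio was 2.62 (1.30 to 5.88), and the promoter passed from H3K27me3-only to bivalent. At FOXQ1 H3K4me3 was 42.2 and 51.8 and at FOXC1 131 and 150, both with intervals that include 1.

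The group on chromosome 16 comprised FOXF1, FOXC2 and FOXL1, with starts 56.3 and 11.7 kb apart. FOXF1 (86544133 to 86549028), a regulator of lung and gut mesenchyme, had 206 and 254 and a ratio of 1.23 (0.998 to 1.53). FOXC2 (86600435 to 86603334), which acts in lymphatic vessels and somites, had 147 and 162, or 1.10 (0.852 to 1.43). FOXL1, of the mesenchyme beneath the gut epithelium, had 73.4 and 45.9 and fell to 0.625 (0.404 to 0.965). The interval of FOXL1 does not overlap that of FOXF1, although their nearest ends, 0.965 and 0.998, lie close. Both intervals cover counting error only, so whether these neighbours responded differently was not tested. H3K4me3 was 40.2 and 34.7 at FOXF1, 37.3 and 30.9 at FOXC2 and 57.8 and 62.3 at FOXL1. The window of FOXF1 also holds the start of FENDRR and that of FOXC2 the start of FOXC2-AS1, and reads of such pairs cannot be told apart.

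FOXE3 and FOXD2, a further pair of neighbours that was noticed after the values were seen, lie on chromosome 1 with starts 21.8 kb apart. FOXE3, a lens regulator, had 122 and 144 (1.18, 0.891 to 1.56), close to the 1.16 of FOXD2.

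**Figure D4:**
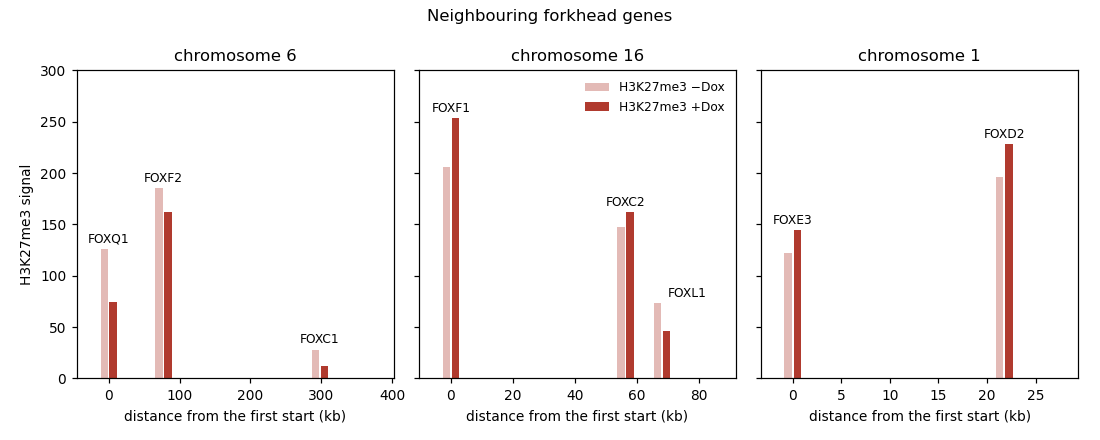
H3K27me3 signal in −Dox (pale bars) and +Dox cells (dark bars) at 3 groups of neighbouring forkhead genes, placed by the distance in kb from the first start of each group. FOXQ1, FOXF2 and FOXC1 have lower bars in +Dox cells, FOXF1, FOXC2, FOXE3 and FOXD2 higher ones, and FOXL1 a lower one.

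Neural members were bivalent or H3K4me3-only. FOXB2, expressed in the developing brain, had the highest H3K27me3 of the family, 259 in −Dox and 319 in +Dox cells. It rose to 1.23 (1.02 to 1.49), although its rank among all promoters went from 6 to 15. H3K4me3 at FOXB2 was 51.6 and 24.2 and fell to 0.470 (0.259 to 0.796), the 1 member at which this mark fell. FOXN4, a retinal and spinal interneuron regulator, had 66.6 and 46.6 (0.700, 0.447 to 1.09), with H3K4me3 at 43.6 and 36.9, and its H3K27me3 interval includes 1.

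FOXP2, known from speech development, had 84.8 and 27.6, about 67 and 22 reads. It fell to 0.325 (0.190 to 0.530), with H3K4me3 at 103 and 86.9. Its deposited start lay 328488 bp from the annotated main start, so this is the signal of an alternative start. FOXB1 and FOXD3 were H3K4me3-only. FOXD3, a neural crest factor that is also expressed in pluripotent cells, had an H3K4me3 signal of 221 and 232, rank 11 and 6 of all promoters, and H3K27me3 at 4.56 and 4.85. FOXB1 had H3K4me3 at 188 and 165, and H3K27me3 at 16.7 and 6.34. The paralogues FOXB1 and FOXB2 thus differed in class and in H3K27me3 level in both conditions.

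Epithelial, sensory and ciliary members held the lowest ratio among the 43. FOXJ1, the master regulator of motile cilia, had an H3K27me3 signal of 24.3 in −Dox and 2.98 in +Dox cells, about 19 and 2 reads. It fell to 0.123 (0.0117 to 0.429), while H3K4me3 was 63.8 and 67.1. FOXE1, the thyroid factor, behaved unlike it, with 208 and 257 (1.23) and an interval from 1.00 to 1.53 whose lower end lay just above 1. H3K4me3 at FOXE1 was 31.9 and 17.2 (0.537, 0.271 to 1.05). FOXE3 had H3K4me3 at 15.7 and 9.32. Both FOXE genes thus had a higher scaled H3K27me3 signal and a lower H3K4me3 signal in +Dox cells, within counting error except for H3K27me3 at FOXE1.

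FOXI2 had 44.9 and 30.2 for H3K27me3 (0.673, 0.384 to 1.17) and 61.0 and 45.5 for H3K4me3. FOXI1, of inner ear and kidney intercalated cells, and FOXN1, of thymic epithelium, were unmarked in both conditions, with H3K27me3 between 2.24 and 6.09 and H3K4me3 between 3.73 and 8.95.

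In the gonadal and germ cell set, FOXL2, which maintains granulosa cells of the ovary, was bivalent. H3K27me3 was 117 and 82.8, a fall to 0.709 (0.507 to 0.979), and H3K4me3 was 67.3 and 69.3. FOXR1 and FOXR2 were unmarked, with H3K27me3 between 2.28 and 12.2. FOXP3, which defines regulatory T cells, was unmarked as well, with at most 5.70 for either mark. FOXH1, the partner of SMAD proteins in Nodal signalling, was H3K4me3-only, with 160 and 132 for H3K4me3 and 2.28 and 3.36 for H3K27me3. Its window also holds the start of PPP1R16A, whose reads cannot be told apart from those of FOXH1.

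**Figure D5:**
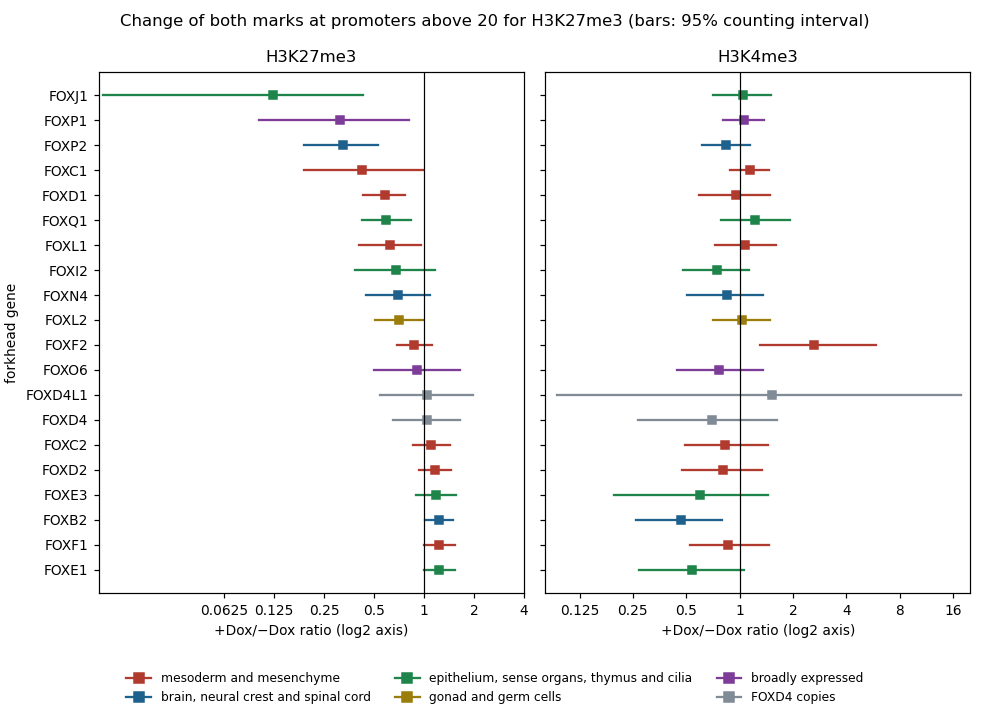
Ratio of +Dox to −Dox signal (squares) with its 95% counting interval (bars) for H3K27me3 (left) and H3K4me3 (right) at 20 forkhead promoters above 20 for H3K27me3, on log2 axes, coloured by role. FOXJ1, at 0.123, lies lowest for H3K27me3 and FOXE1, FOXF1 and FOXB2, at 1.23, highest, and for H3K4me3 FOXB2 and FOXF2 alone have intervals that exclude 1.

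Among the broadly expressed members FOXP1 and FOXO6 were bivalent. FOXP1, a regulator in blood, heart and lung, had H3K27me3 at 24.0 and 7.46, about 19 and 6 reads, and fell to 0.311 (0.102 to 0.810), with H3K4me3 at 121 and 129. FOXO6, best known from the brain and grouped here with the other FOXO genes, had 33.1 and 30.2 for H3K27me3 (0.913, 0.499 to 1.65) and 37.3 and 28.7 for H3K4me3. FOXO3, a target of insulin signalling, is named here after its values were seen, since its H3K27me3 stayed under 20. It was 18.6 in −Dox and 3.73 in +Dox cells, about 15 and 3 reads, a fall to 0.200 (0.0365 to 0.696). H3K4me3 at FOXO3 was 208 and 174, and the deposited start lay 1082 bp from the main start.

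The other broadly expressed members were H3K4me3-only in −Dox cells. FOXO1 had the next highest H3K4me3 of this set, at 181 and 177. FOXP4 had 116 and 121 for the same mark. FOXJ2, FOXJ3, FOXK2, FOXM1, FOXN2, FOXN3 and FOXO4 lay between 44.7 and 96.9 for H3K4me3 in −Dox and between 45.5 and 91.3 in +Dox cells. FOXK1, a regulator of metabolism, had 33.6 and 18.3 (0.543, 0.281 to 1.04) and so left its class by crossing 20. H3K27me3 over these 10 genes stayed between 1.12 and 16.8. FOXM1, the cell-cycle factor, went from 1.14 to 8.58 for H3K27me3, which was about 1 and 7 reads, with an interval from 0.885 to 311.

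The FOXD4 copies are near-identical genes on chromosomes 2 and 9, among which reads may be split or lost. FOXD4 had H3K27me3 at 49.1 and 51.1 (1.04, 0.651 to 1.65) and FOXD4L1 at 26.2 and 27.2 (1.04, 0.541 to 1.97). H3K4me3 was 16.5 and 11.6 at FOXD4 and 1.71 and 2.61 at FOXD4L1, so both were H3K27me3-only. FOXD4L2 and FOXD4L4 were listed at 0 in all 4 libraries, and FOXD4L5 at 0 for H3K27me3. FOXD4L3 and FOXD4L6 reached at most 4.18 and 12.2 for H3K27me3. Values of this group are uncertain for that reason.

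Fewer members passed for H3K4me3 than for H3K27me3. H3K4me3 fell at 1 of 43 members (3.06% of all promoters) and rose at 1 (1.73% of all promoters), which were FOXB2 and FOXF2. The median log2 ratio was −0.20 (−0.27 to 0.04) over the 32 members with a mean H3K4me3 signal of at least 20, and −0.04 over all promoters with that minimum. The members' interval includes the median of all promoters, and at a minimum mean of 40 the medians were −0.03 in 23 members and −0.03 in all promoters. Setting the median ratio of promoters low in H3K4me3 to 1 brought FOXE1, FOXK1, FOXN2 and FOXO3 below 1 as well, with all H3K4me3 ratios multiplied by 0.944.

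The changes of the marks were then set side by side at the 16 members with a mean of at least 20 for both. Across these promoters, which share their libraries and are not replicates, the 2 ratios had a Spearman correlation of −0.54, and across the 1514 promoters that met the same condition it was −0.36. H3K4me3 was lower in +Dox cells at all 5 members whose H3K27me3 ratio was 1 or more, namely FOXB2, FOXC2, FOXD2, FOXE1 and FOXF1, with a median log2 H3K4me3 ratio of −0.31. At the 11 members with an H3K27me3 ratio below 1, it was lower at 6, with a median of −0.07. Among all promoters H3K4me3 was lower at 204 of 234 with an H3K27me3 ratio of 1 or more and at 834 of 1280 with a ratio below 1, with medians of −0.45 and −0.14. The members' counts thus lay close to the general pattern. With the single exception of FOXB2, the H3K4me3 interval of each of the 5 includes 1.

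Ratios were also set side by side within subfamilies. FOXC1 and FOXC2 had H3K27me3 ratios of 0.424 and 1.10 with overlapping intervals. FOXF1 and FOXF2 had 1.23 and 0.872, also overlapping. In the FOXP subfamily all 4 ratios were below 1, with falls at FOXP1 and FOXP2, whereas FOXP4 (7.61 and 2.24) and FOXP3 rested on few reads. Both FOXL genes fell, but neither passed with the libraries scaled to the same total or with the median ratio of low promoters set to 1. Of the 4 FOXO genes FOXO3 alone fell, on about 15 and 3 reads. FOXO1, with about 3 and 10 reads (2.85, 0.845 to 18.6), and FOXO4, with about 4 and 2, rested on few reads.

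Genes of pathways in which forkhead proteins act were looked up as well. Of 23 genes of FOXO signalling 22 had an H3K27me3 ratio, and H3K27me3 fell at 3 (7.06% of all promoters) and rose at none (1.59% of all). They were BCL2L11, a pro-apoptotic FOXO target, with 107 and 55.9 (ratio 0.523), PIK3R1, a subunit of phosphoinositide 3-kinase, with 23.2 and 7.08 (0.305), and the cell-cycle inhibitor gene CDKN1B with 18.3 and 5.22 (0.286). H3K4me3 fell at AKT2 (0.573) and INSR (0.632), a kinase and a receptor of insulin signalling, which is 2 of 23 (3.06% of all promoters), and rose at none (1.73% of all). Of 15 genes of Nodal signalling 14 had an H3K27me3 ratio, and H3K27me3 fell at 2 (7.06% of all promoters), among them CER1, a secreted Nodal inhibitor, with 87.5 and 25.0 (0.286). It rose at none of the 14, and no H3K4me3 interval in this list excluded 1. GSC, an organizer gene, had 135 and 107 (0.795, 0.594 to 1.07).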

How the data were processed

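ChIP-seq for H3K27me3 and H3K4me3 was carried out on −Dox and +Dox JMJD3c-hESCs, with 1 library in each of the 4 groups. The submitters' processing notes name CASAVA 1.4, Bowtie2 and hg19, and per the study's methods the authors mapped the reads to hg19 with Bowtie2, whose version is not given in the sources used here. The deposited values are signal, that is, ngs.plot coverage scaled by the authors to the library's reads and summed over 6 kb around 1 start per gene. Background was not subtracted with an input, and a genome-wide loss would be hidden by this scaling. Profiles in the methods were also scaled to the density downstream of transcription ends, which may or may not have entered these files.

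Members were found by symbol. The members and gene lists were chosen with earlier results of these data known. Genes were named with all values if they exceeded 20 for H3K27me3, or if a ratio interval excluded 1 at a mean of at least 20. The other members are given by class and range. Approximate reads were signal divided by the value of 1 read, which was 1.27, 1.25, 0.972 and 1.26 in H3K27me3 −Dox, H3K27me3 +Dox, H3K4me3 −Dox and H3K4me3 +Dox. They gave 95% Clopper-Pearson intervals of the ratio, tested on simulated data. Such intervals cover counting error only, and 3 reads, the limit that a count of 0 allows, corresponded to a signal between 2.92 and 3.81. Intervals of medians came from order statistics of the promoters. No pseudocount was used for the ratios as reported.

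Transcripts were matched to GENCODE 44 on GRCh37, which found 18244 (90.1%) of all and 39 of 46 members. For FOXC1, FOXC2, FOXD1, FOXF2, FOXK1 and FOXL2 the coordinates are those of the gene. The windows of 16 members, among them FOXE1, FOXH1, FOXL2 and FOXM1, hold the start of another gene. Reads of the member and of that gene cannot be told apart there. Printed sequences were restricted to promoters that RefSeq also lists. FOXI3 was not analysed here. The values of 2 further genes enter the counts and medians but are not reported here. Python 3.11.15, pandas 2.3.3 and scipy 1.17.1 were used. Alternatives were class thresholds, scalings, a pseudocount, minimum means, and subsets of members.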

Additional observations from a re-analysis of the deposited data

How the results depend on the processing

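Over 57 planned recomputed values of 9 summary results, 47 stayed within the counting or order-statistic interval, or within 1.5 times the count, and 10 moved. A reversal could be called only for a median whose interval excluded 0, and no median had such an interval, so none could be found. The median log2 H3K27me3 ratio of −0.20 changed sign, to 0.04 with equal totals and 0.06 over starts within 1 kb, yet stayed within its interval. The count of members whose H3K27me3 fell, 9 as reported, was 5 at a minimum mean of 40 and 4 over the 33 members whose deposited start was matched and lay within 1 kb of the main start, both of which leave out promoters. The count that rose, 2 as reported, was 7 with the libraries scaled to the same total, which multiplies each ratio by 1.18. For H3K4me3 the median log2 ratio was −0.28, and 5 members fell, with the median ratio of low promoters set to 1, while at a minimum mean of 40 the median was −0.03. At a minimum mean of 40 0 members fell and 0 rose, and 0 rose over the starts within 1 kb. The count of bivalent members with an H3K27me3 ratio below 0.5, 4 as reported, was 1 with classes from the +Dox values and 2 with classes from the mean of both conditions, so it depended on the −Dox values setting the class. No paired analysis was possible because every group consists of a single library (1 per mark and condition), none of which could be left out. Depth limits the low promoters, since a signal of 20 rests on about 15.8 H3K27me3 reads.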
